A study of Mus musculus with 10 samples.

Results

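Of the 45037 probe sets tested here, 21 carry the symbol of 1 of 9 core genes of the Hedgehog pathway, and they were taken by symbol alone. The genes are the ligands Shh, Ihh and Dhh, the receptor Ptch1, the signal transducer Smo, the ligand-binding antagonist Hhip and the transcription factors Gli1, Gli2 and Gli3. They were measured in urogenital systems of mouse embryos at embryonic day 15.5, in 5 RNA pools labelled Wnt9bcneo/cneo, called homozygous here, and 5 pools labelled Wnt9bcneo/+, called control. The titles of the control pools call them WT, and which of the labels holds is not given. Each pool held 1 to 2 dissected urogenital systems, and 1 ug of total RNA was labelled with biotin. Wnt9b is a Wnt ligand of the nephric duct and ureteric bud, no label gives the effect of cneo on its transcript, and neither strain nor sex is labelled. Since pools were dissected organs, fewer cells of a type and less RNA per cell cannot be told apart in any value below.

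Hedgehog ligands are secreted, lipid-bearing proteins that bind Patched and so release its hold on Smoothened, which then acts in the primary cilium to turn GLI factors from repressors into activators. Ptch1, Hhip and Gli1 are themselves targets of the pathway in many mouse tissues, so their transcripts are widely read as a measure of signalling. In the mouse urogenital system, Shh is made by the lining of the ureter and bladder and acts on the surrounding mesenchyme, which forms smooth muscle. Shh is also made under the capsule of the adrenal cortex. Dhh is made by Sertoli cells of the testis, where it acts on Leydig cells, and by Schwann cells of peripheral nerves, and Ihh is best known from cartilage and gut.

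None of the 21 probe sets passed the test of a difference between the genotypes (limma, adjusted p of 0.17 or above, Benjamini-Hochberg over all probe sets). Among all probe sets 104, or 0.231%, passed the threshold of 0.05, and 1 member probe set had an unadjusted p under 0.05, as 5550 of all 45037 did. The spread over single pools was uneven between members. On their brightest probe sets Dhh differed 15.9-fold, Gli1 7.04-fold and Shh 6.75-fold between highest and lowest pools, but Gli2 1.84-fold and Smo 1.44-fold. Over the brightest probe set of each gene, 4 of the 9 had a higher and 5 a lower mean in homozygous pools, and the median log2 difference was -0.003, beside 0.00 over all 18193 named genes. Gli2 was the exception in 1 respect, since each homozygous pool lay above each control pool on its brighter probe set.

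**Figure D1:**
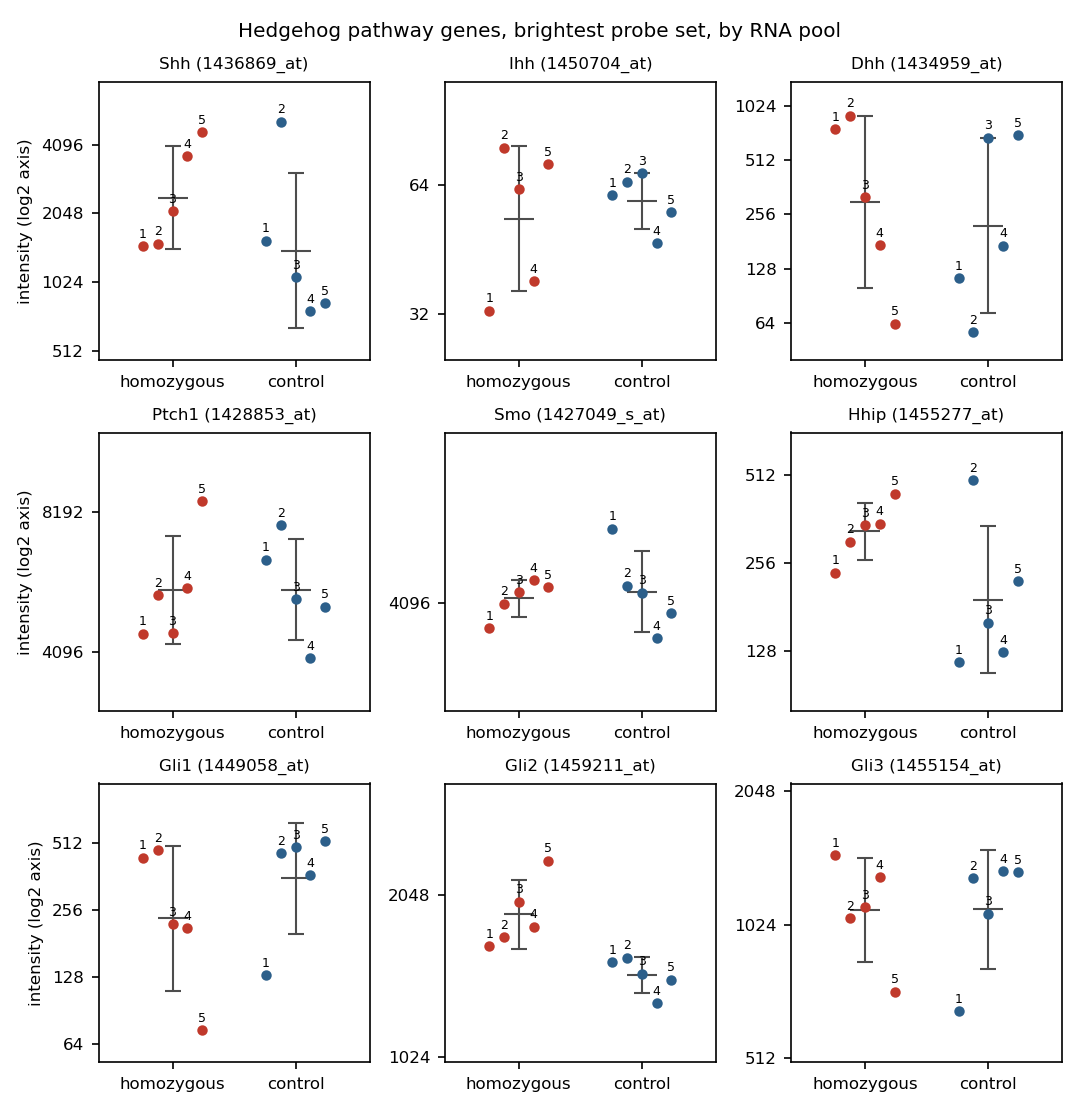
Intensity of the brightest probe set of each Hedgehog gene in every RNA pool, on log2 axes that differ between panels. Points carry the pool number, and bars show the mean and SD of log2 intensity (n = 5 pools each). Only the Gli2 groups do not overlap, with homozygous pools at 1649 and above and control pools at 1568 and below.

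Some properties of the arrays touch these genes. The deposited intensities had the same trimmed mean, 500, on each array, and values of 16 or below were set to 16, which is 4.00 on the log2 scale. The share of probe sets at or under this floor was 19.9% to 21.1% on homozygous and 22.2% to 23.0% on control arrays, so dim probe sets differ with genotype as a body. On Affymetrix arrays the ratio of 3' over middle probe set of actin and of Gapdh is read as a sign of RNA quality. The actin ratio of homozygous pool 5 was 97.7 and that of control pool 1 was 94.8, while the remaining pools had 9.87 to 33.1. The Gapdh ratio set only control pool 1 apart, at 68.7: it was 36.0 to 50.5 in homozygous pools, with pool 5 at 43.4, and 22.1 to 41.1 in the other control pools. A high actin ratio is thus meant relative to the other pools. No pool had an actin ratio under 9.87 or a Gapdh ratio under 22.1, and the other pools were not shown to hold intact RNA. Xist, which coats the inactive X chromosome, had log2 levels of 13.75 to 14.27 in 3 homozygous pools (3, 4 and 5), where 3 Y-linked genes were at 4.01 or below. In no other pool did Xist exceed 6.07. The Y-linked genes averaged 9.75 to 10.31 in control pools, and 9.88 and 10.02 in homozygous pools 1 and 2. By these genes, the only female pools were homozygous, and every control pool was male. Sex and genotype are therefore partly confounded in each comparison of the groups below. Markers of the kidney were present in all pools: the mean of 7 nephron progenitor genes was 9.12 to 9.41 in homozygous and 9.26 to 10.1 in control pools. Other organs were uneven, with adrenal cortex genes averaging 7.96 to 11.13 in homozygous pools but 4.93 to 10.5 in control pools, where pools 1 and 2 lay near the floor. The means of 9 sympathetic neuron and chromaffin markers did not overlap, at 9.57 to 11.22 in homozygous and 5.73 to 8.59 in control pools. All 9 had a higher homozygous mean. For 6 of them each homozygous pool lay above each control pool, beside 2.61% of all genes. The threshold was passed by 1, Npy, beside 0.319% of all genes.

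RefSeq promoter windows (GRCm38.p6, 250 bases before to 50 after a start) matched 7 of the 9 genes. Shh and Gli1 had no window and were not searched. The windows of 3 are shown because their genes stand for what follows: Dhh varied most between pools, Ptch1 is the receptor and a standard target, and Gli2 separated the genotypes. All 3 lie on the minus strand, at chr15:98898491-98898790 for Dhh, chr13:63565686-63565985 for Ptch1 and chr1:119053570-119053869 for Gli2. The Ptch1 and Gli2 windows lie inside the spans of their genes given below. Capitals mark the GC box GGGCGG on either strand, the only 1 of 3 searched motifs that any of the 7 windows held.
Dhh promoter: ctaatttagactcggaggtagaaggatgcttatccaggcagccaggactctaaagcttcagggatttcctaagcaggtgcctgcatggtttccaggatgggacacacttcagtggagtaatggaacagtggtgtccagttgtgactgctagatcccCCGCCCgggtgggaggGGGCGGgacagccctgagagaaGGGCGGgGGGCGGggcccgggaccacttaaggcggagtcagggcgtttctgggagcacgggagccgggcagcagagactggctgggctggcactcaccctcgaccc
Ptch1 promoter: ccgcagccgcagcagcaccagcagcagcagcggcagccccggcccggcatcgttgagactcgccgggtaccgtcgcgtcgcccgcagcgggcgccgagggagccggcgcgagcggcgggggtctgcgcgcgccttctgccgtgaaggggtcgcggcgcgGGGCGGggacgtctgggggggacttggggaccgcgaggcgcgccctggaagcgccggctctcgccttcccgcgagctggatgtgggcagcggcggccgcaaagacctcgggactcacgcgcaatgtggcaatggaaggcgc
Gli2 promoter: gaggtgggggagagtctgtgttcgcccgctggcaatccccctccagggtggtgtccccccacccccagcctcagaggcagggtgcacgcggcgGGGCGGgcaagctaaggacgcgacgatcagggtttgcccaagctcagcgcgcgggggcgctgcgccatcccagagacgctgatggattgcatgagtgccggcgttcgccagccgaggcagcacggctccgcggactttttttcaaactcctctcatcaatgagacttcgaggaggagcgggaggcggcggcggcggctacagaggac
The Dhh window held 4 GC boxes and the other windows shown 1 each. At least 1 GC box was present in 6 of the 7 windows, Smo being without, and in 35.7% of all 32851 promoter windows. The GLI-binding motif GACCACCCA, present in 0.253% of all windows, and the NR5A1-binding motif AAGGTCA, present in 4.72%, were searched on both strands and matched no member window. Neither overlaps the GC box. GC content was 61.7% in the Dhh window, 76.3% in that of Ptch1 and 67.3% in that of Gli2.

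The ligand Shh (chromosome 5, 28456840 to 28467101) was read by probe set 1436869_at. It had intensities of 1476, 1511, 2096, 3637 and 4642 in homozygous pools 1 to 5, against 1556, 5159.9, 1079.5, 765 and 828 in control pools 1 to 5. Control pool 2 was the highest of all and control pools 3, 4 and 5 the lowest, so the groups overlapped through control pool 2 and, barely, control pool 1. The log2 means were 11.23 ± 0.75 in homozygous and 10.46 ± 1.12 in control pools (SD, n = 5 each). The log2 difference of 0.77 ± 0.57 (SE; 95% interval -0.53 to 2.07) did not pass (limma adjusted p = 0.665; exact two-sided permutation p = 0.246). It was 1.24 without control pool 2, 0.57 without both pools of high actin ratio and 0.087 without the 3 pools of high Xist. A second Shh probe set, 1427571_at, was at the floor in 8 of 10 pools.

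Other genes of Shh-making linings and of the mesenchyme around them varied between the same pools, in unlike orders. Foxf1, a forkhead factor induced by Hedgehog signals in mesenchyme and singled out after its values were seen, read 960, 201, 700.0, 1243 and 1324 in homozygous pools 1 to 5, against 201, 2098, 126, 95.2 and 86.7 in control pools 1 to 5. The 3 pools with the most Shh (control 2, homozygous 5 and homozygous 4) also had the most Foxf1, and the 3 with the least Shh (control 4, 5 and 3) had the least. Mesenchyme lists shared this order only in part: the means of the ureter mesenchyme and smooth muscle lists were highest in homozygous pool 1, at 10.88 and 11.19 (log2), where Shh was low. The ureter mesenchyme mean, with Foxf1 in the list, came next in control pool 2 (10.81), homozygous pool 4 (10.67) and homozygous pool 5 (10.51). It was lowest in control pool 1, at 9.48. The smooth muscle mean came next in homozygous pool 3, at 10.31. Bmp4 in homozygous pool 5 was the lowest of the homozygous pools, at 10.48. Of 8 urothelium markers, the transcription factor genes Foxa1 and Trp63 were also highest in the 3 pools with the most Shh, but the other 6 were not. The uroplakin genes Upk2 and Upk3a were highest in homozygous pool 1, at 8.85 and 9.71 (log2). The keratin gene Krt7 was 8.2 and 8.06 in homozygous pools 4 and 5, against 8.66 to 9.04 in control pools 3 to 5. Krt5 encodes a keratin of the basal cells of the lining. Krt5 had 230, 95.7, 125, 538 and 221.9 in homozygous pools, against 52.4, 1434, 60.8, 55.2 and 32.7 in control pools. Over the 8 measured urothelium markers, none of which passed or lay at the floor throughout, the mean log2 level was 7.21 to 8.83 in homozygous and 6.94 to 9.29 in control pools. It was highest in control pool 2, while homozygous pool 1, with 8.83, came next despite its low Shh. The mean of 10 collecting duct and ureteric stalk markers was 8.03 to 9.07 in homozygous and 8.98 to 9.44 in control pools. Of these markers 8 had a lower and 2 a higher homozygous mean, and none passed.

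Control pool 2 also had high levels of some genes of another Shh-making tissue, the gut. The lectin gene Lgals4 read 4686 there, against 64.7 to 119 in homozygous pools and 57.0 to 98.2 in the other control pools, and Cdx1, a homeobox gene of hindgut epithelium, read 131 there and below the floor of 16 in the remaining 9. The mean log2 of 8 hindgut epithelium markers was 5.08 to 5.42 in homozygous pools and 4.93 to 7.19 in control pools. Of the same list, Cdh17 and Vil1 were also highest in control pool 2, at 9.53 and 9.96 (log2). Fabp1 and Krt20 were not: they were 4.03 and 5.76 there, against 8.1 and 6.35 in control pool 4. Fabp1 was also 7.36 and 7.39 in homozygous pools 1 and 3. Cdx2 and Fabp2 stayed at 4.99 or below in each pool. The part of these tissues in the level of Shh was not tested. By likeness over the 10 arrays, among 9120 genes with a mean log2 of 8 or more, Shh was closest to Fat4 (Pearson r = 0.963, Spearman rho = 0.939), Cacna1d (0.955 and 0.988) and Efemp1 (0.943 and 0.976). Without control pool 2 and homozygous pool 5, the 2 farthest from the median of Shh, r was 0.938, 0.926 and 0.898. These r describe the same 10 arrays and are the highest of many.

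**Figure D2:**
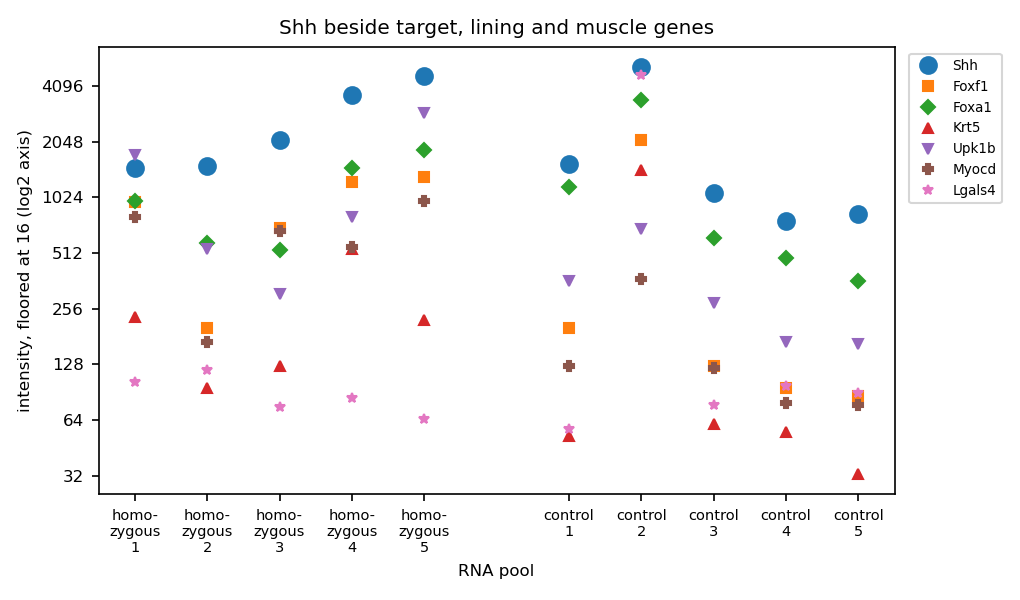
Intensity per RNA pool (log2 axis, floored at 16) of Shh and of Foxf1, Foxa1, Krt5, Upk1b, Myocd and Lgals4, with homozygous pools on the left. Shh peaks at 4642 in homozygous pool 5 and 5159.9 in control pool 2, and Foxf1 peaks in the same pools of each genotype. Pools of a genotype have no order.

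The ligand Dhh (chromosome 15, 98881615 to 98898562) had the widest spread, with intensities of 761, 904, 320.0, 173 and 63.2 in homozygous pools 1 to 5, against 114, 56.8, 683, 172 and 707 in control pools 1 to 5 (probe set 1434959_at). Each genotype thus had 2 pools at 683 or above and at least 2 at 173 or below, and the groups overlapped over nearly their whole range. Its pooled within-genotype SD of 1.6 on the log2 scale exceeded that of 99.3% of the 9120 genes with a mean log2 of 8 or more. The log2 means were 8.22 ± 1.58 in homozygous and 7.79 ± 1.61 in control pools (SD, n = 5 each). The difference, 0.43 ± 0.96 (SE; 95% interval -1.74 to 2.61), did not pass (limma adjusted p = 0.913; exact two-sided permutation p = 0.635). It was 1.90 without the 3 pools of high Xist and, without single pools, -0.059 (control pool 2) to 0.99 (homozygous pool 5). The second Dhh probe set, 1422127_at, was at the floor in all 10 pools.

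Some genes of the testis were high in the same 4 pools, and others were not restricted to them. Amh, the Müllerian-inhibiting hormone of Sertoli cells, read 355 and 690.2 in homozygous pools 1 and 2 and at most 9.03 in pools 3 to 5, against 419 and 316 in control pools 3 and 5 and at most 4.40 in control pools 1, 2 and 4. Cyp17a1, a steroid-synthesizing enzyme of fetal Leydig cells, read 5002 and 7579 in the same homozygous pools and 37.4 or less in the rest of them. In control pools 3 and 5 it read 7162 and 5055, and in the rest 9.65 or less. The 7 measured Sertoli markers other than Dhh had mean log2 levels of 6.38 to 8.90 in homozygous and 6.25 to 8.65 in control pools. This mean was 8.30 or more in these 4 pools and 6.64 or less in the other 6. Not every marker of the list followed these pools: Cldn11 was highest in control pool 2, at 10.49, and Fgf9 in homozygous pool 5, at 7.4. Sox9 was 8.2 and 8.22 in control pools 2 and 4, against 7.79 in homozygous pool 1. The germ cell genes Dazl and Ddx4 were also present in homozygous pools 4 and 5, at 8.68 and 8.54 and at 8.12 and 8.23 (log2), and germ cells of both sexes express them. Hsd3b1, on the Leydig and adrenal cortex lists alike, was highest in homozygous pool 3, at 14.27, and was 11.39 in control pool 4. Control pools 1, 2 and 4 had no Amh above the floor although their Y-linked genes averaged 9.89 or more.

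Homozygous pool 3, which had no Amh above the floor, still read 320.0 for Dhh. It also had the highest level of Sox10, the transcription factor of peripheral glia: Sox10 read 362, 322, 449, 211 and 246 in homozygous pools 1 to 5, against 62.8, 396, 56.3, 294 and 247 in control pools 1 to 5. Control pool 2 had nearly as much Sox10 as homozygous pool 3 but the lowest Dhh of all. The mean log2 of 6 measured Schwann and satellite glia markers other than Dhh was 8.03 to 9.0 in homozygous and 6.20 to 8.43 in control pools, and 0 of the 6 passed. Whether a pool's Dhh came from testis, nerve or both was not measured. The part of testis or glial tissue in the level of Dhh was not tested. By likeness over the 10 arrays, Dhh was closest to Inf2 (r = 0.958), Grk5 (0.927) and Ggps1 (0.921), with r of 0.941, 0.929 and 0.921 without control pool 2 and homozygous pool 2.

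**Figure D3:**
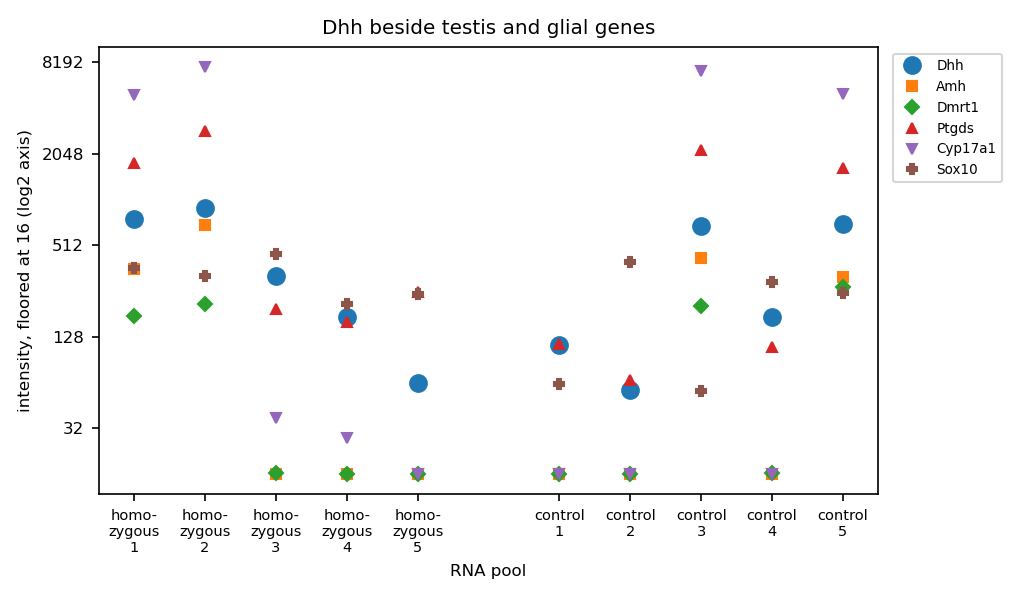
Intensity per RNA pool (log2 axis, floored at 16) of Dhh, the testis genes Amh, Dmrt1, Ptgds and Cyp17a1, and the glial gene Sox10, with homozygous pools on the left. Dhh is at 683 or above in homozygous pools 1 and 2 and control pools 3 and 5, the pools in which Amh is above the floor.

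The ligand Ihh (chromosome 1, 74945315 to 74951672) was dim, at 32.6, 78.3, 62.7, 38.2 and 71.5 in homozygous pools 1 to 5, against 60.7, 65.2, 68.1, 46.8 and 55.4 in control pools 1 to 5. No pool stood out, and the log2 difference of -0.14 ± 0.27 (SE; 95% interval -0.74 to 0.47) did not pass (limma adjusted p = 0.891) and was 0.043 without homozygous pool 1. Control pool 5 held cartilage, a tissue that makes Ihh as it matures: Col2a1 read 2691 there, against 52.7 to 80.7 in homozygous pools and 15.1 to 135 in the other control pools, and Matn1 read 2217, against 9.55 to 39.3 in homozygous and 29.9 to 36.7 in the other control pools. Ihh in that pool, 55.4, lay within the range of the others, and Col10a1, the collagen of mature cartilage, was at the floor there. The mean log2 of 7 cartilage markers other than Ihh was 6.17 to 6.59 in homozygous and 6.10 to 10.33 in control pools.

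Among the genes of signal reception, Ptch1 (chromosome 13, 63508328 to 63573460) was bright and did not separate the genotypes. Its brightest probe set, 1428853_at, read 4483, 5428, 4497, 5608 and 8642 in homozygous pools 1 to 5, against 6461, 7667, 5323, 3964 and 5121 in control pools 1 to 5. Homozygous pool 5 and control pool 2, the pools with the most Shh, had the most Ptch1 on this probe set as well. The log2 means were 12.44 ± 0.39 in homozygous and 12.44 ± 0.36 in control pools (SD, n = 5 each), a difference of -0.003 ± 0.23 (SE; limma adjusted p = 1). Its 95% interval ran from -0.52 to 0.51. The dimmer probe set 1439663_at, with 134 to 299 in homozygous and 129 to 546 in control pools, differed by -0.22 ± 0.38 and by 0.036 without control pool 2. Probe set 1450824_at was at the floor in all 10 pools. Closest to Ptch1 in pattern were Col4a5 (r = 0.952), Enpp4 (0.938) and Sil1 (0.935), with r of 0.895, 0.813 and 0.885 without homozygous pool 5 and control pool 2.

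Smo (chromosome 6, 29735497 to 29761366), the transmembrane protein that Patched restrains, was the steadiest of the 9. Probe set 1427049_s_at read 3769, 4084, 4243, 4413 and 4311 in homozygous pools 1 to 5, against 5231, 4331, 4232, 3639 and 3959 in control pools 1 to 5. All pools but control pool 1 lay within a narrow band, and the pooled within-genotype SD of 0.15 was larger than that of only 12.3% of the 9120 brighter genes. The difference was -0.031 ± 0.094 on the log2 scale (SE; 95% interval -0.24 to 0.18; limma adjusted p = 0.961). A second probe set, 1427048_at, behaved otherwise. It read 210, 184, 69.3, 135 and 37.6 in homozygous pools, against 39.6, 155, 219, 329.9 and 233 in control pools, so that its lowest values were in the pools with high actin ratios. Its difference of -0.59 ± 0.67 (SE) was -0.21 without homozygous pool 5, -1.09 without control pool 1, -0.71 without both and 0.30 without the 3 pools of high Xist. The third, 1442215_at, was at the floor in 9 of 10 pools. Naa35 (r = 0.99), Kat6a (0.97) and Tmem33 (0.963) were closest to the brightest Smo probe set in pattern, with r of 0.961, 0.917 and 0.934 without control pools 1 and 4.

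Hhip (chromosome 8, 79965850 to 80058060), a membrane protein that binds the ligands and blunts their signal, had a higher homozygous mean on each of its 4 probe sets, and 0 of the 4 passed. The brightest, 1455277_at, read 237, 302, 345, 348 and 442 in homozygous pools 1 to 5, against 117, 491, 159.6, 127 and 221.7 in control pools 1 to 5. Each homozygous pool lay above each control pool except control pool 2, the pool with the most Shh, which was highest. The log2 means were 8.36 ± 0.33 and 7.58 ± 0.84 in homozygous and control pools (SD, n = 5 each), and the difference was 0.78 ± 0.39 (SE; 95% interval -0.098 to 1.65; limma adjusted p = 0.473). Without control pool 2 it was 1.12 (limma adjusted p = 0.0859), and without both pools of high actin ratio 0.49 (adjusted p = 0.644). The other probe sets, 1437933_at, 1438083_at and 1421426_at, differed by 0.68, 0.75 and 0.33. Single pools weighed on these values: 1437933_at differed by 0.19 without control pool 1, which was at the floor, 1438083_at by 0.49 without control pool 4, and 1421426_at by 0.13 without control pool 4. The exact two-sided permutation p was 0.103 for the brightest, 1455277_at. It was 0.381 for 1437933_at, 0.0556 for 1438083_at and 0.389 for 1421426_at. Probe set 1438083_at read 59.9 to 103 in homozygous and 21.3 to 90.5 in control pools. The 4 probe sets read the same RNA, so they are not independent.

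Of the transcription factors, Gli1 (chromosome 10, 127329882 to 127341579), a target and amplifier of the pathway, varied most. Its only probe set, 1449058_at, read 439, 473, 221, 212 and 73.9 in homozygous pools 1 to 5, against 131, 458, 488, 366 and 519.9 in control pools 1 to 5. Homozygous pools 1 and 2 lay within the range of control pools 2 to 5, homozygous pools 3 and 4 below it, and the lowest value of each genotype was in its pool of high actin ratio. The log2 means were 7.88 ± 1.08 in homozygous and 8.47 ± 0.83 in control pools (SD, n = 5 each). The difference of -0.59 ± 0.58 (SE; 95% interval -1.90 to 0.72) did not pass (limma adjusted p = 0.708; exact two-sided permutation p = 0.349). It was -0.17 without homozygous pool 5, -0.95 without control pool 1, -0.53 without both (the pools of high actin ratio) and 0.36 without the 3 pools of high Xist, so its sign rested on homozygous pools 3 to 5.

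In homozygous pool 5, Gli1 was the lowest of all pools while Shh was the second highest. Ptch1 was highest there on 1428853_at, but 134 on 1439663_at, the lowest homozygous value of that probe set. Of the 19829 probe sets with a mean log2 of 7 or more, 27.9% were lowest of their genotype in both pools of high actin ratio and 22.0% were highest in both. Among 12 member probe sets of that brightness, 4 were lowest in both (Gli1, Smo 1427048_at, Gli2 1446086_s_at and Gli3 1455154_at) and 0 highest. The genes closest to Gli1 in pattern, Ier2 (r = 0.987), Wipf2 (0.982) and Dhrs1 (0.98), were also lowest in homozygous pool 5 and control pool 1. Without these 2 pools r was 0.944, 0.961 and 0.945. The part of RNA quality in the level of Gli1 was not tested.

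**Figure D4:**
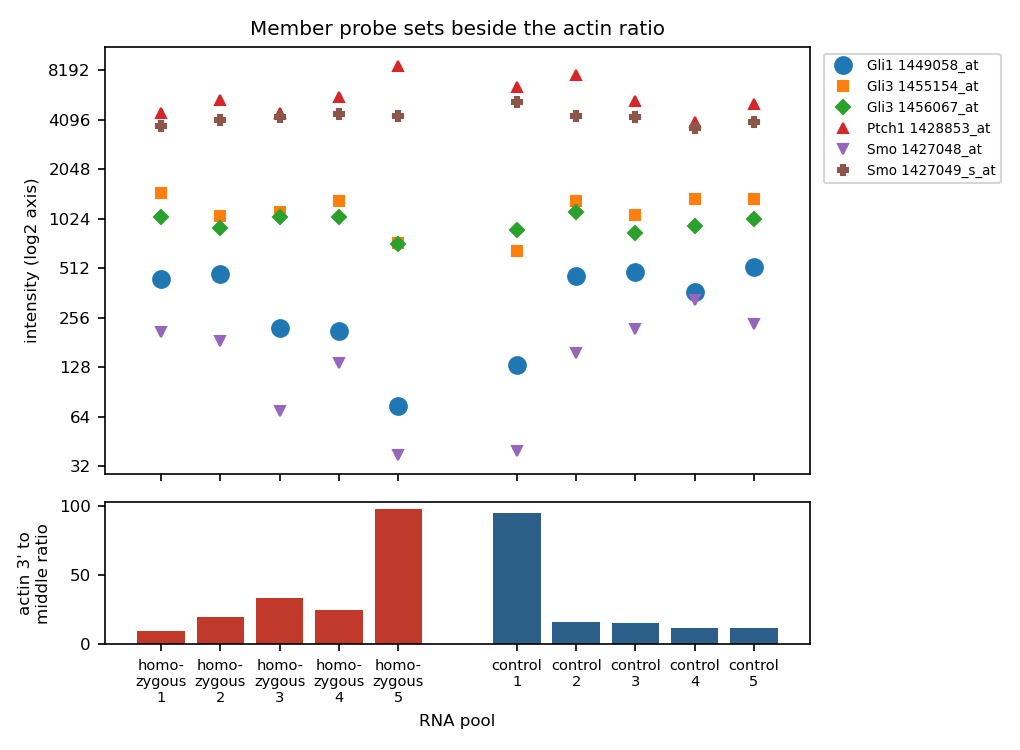
Intensity per RNA pool (log2 axis) of member probe sets of Gli1, Gli3, Ptch1 and Smo above, and the actin 3' to middle ratio of each array as bars below, with homozygous pools on the left. Gli1 and Smo 1427048_at are lowest of their genotype in homozygous pool 5 and control pool 1, the pools with ratios of 97.7 and 94.8, whereas the brightest Ptch1 and Smo probe sets are not.

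Gli2 (chromosome 1, 118834061 to 119054405), the main activator of the pathway in the mouse, was the one member whose groups did not overlap. Probe set 1459211_at read 1649, 1714, 1993, 1791 and 2377 in homozygous pools 1 to 5, against 1537, 1568, 1463, 1289 and 1426 in control pools 1 to 5. The log2 means were 10.88 ± 0.21 in homozygous and 10.51 ± 0.11 in control pools (SD, n = 5 each). The log2 difference of 0.38 ± 0.10 (SE; 95% interval 0.14 to 0.61), a 1.30-fold higher level, did not pass over all probe sets (limma adjusted p = 0.17). The exact two-sided permutation p was 0.00794, which is the lower limit of this test with 5 pools a side. Of all probe sets 1.78% lay higher in each homozygous pool than in each control pool and 1.51% lower, beside 1 and 0 of the 21 here.

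The 2 probe sets of Gli2 differed in this. The dimmer, 1446086_s_at, read 837, 699, 689, 675 and 605 in homozygous pools, against 490.3, 674, 576, 659.9 and 738 in control pools, which overlap. Its difference was 0.17 ± 0.12 on the log2 scale (SE; limma adjusted p = 0.666). Homozygous pool 5 was the highest homozygous pool on 1459211_at and the lowest on 1446086_s_at. The difference on 1459211_at was 0.31 without both pools of high actin ratio (adjusted p = 0.165) and 0.21 without the 3 pools of high Xist (adjusted p = 0.635). Its closest genes in pattern were Gpm6b (r = 0.991), Cklf (0.979) and Alg2 (0.974), with r of 0.97, 0.94 and 0.952 without homozygous pool 5 and control pool 4.

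Gli3 (chromosome 13, 15463723 to 15730026), known as the main repressor, did not differ on either of its bright probe sets. Probe set 1455154_at read 1465, 1059, 1120.0, 1310.4 and 724 in homozygous pools, against 654, 1305, 1083, 1352 and 1344 in control pools, with the lowest value of each genotype again in its pool of high actin ratio. Probe set 1456067_at read 1053, 897, 1048, 1054 and 723, against 878, 1119, 833, 921 and 1026 in control pools. The differences were -0.005 ± 0.25 and -0.007 ± 0.13 on the log2 scale (SE). The tighter 95% interval, that of 1456067_at, ran from -0.29 to 0.28. The third Gli3 probe set, 1450525_at, was at the floor in 5 of 10 pools. Rrbp1 (r = 0.974), Pdlim7 (0.973) and Flna (0.969) were closest to 1455154_at in pattern, with r of 0.864, 0.83 and 0.792 without control pool 1 and homozygous pool 5.

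**Figure D5:**
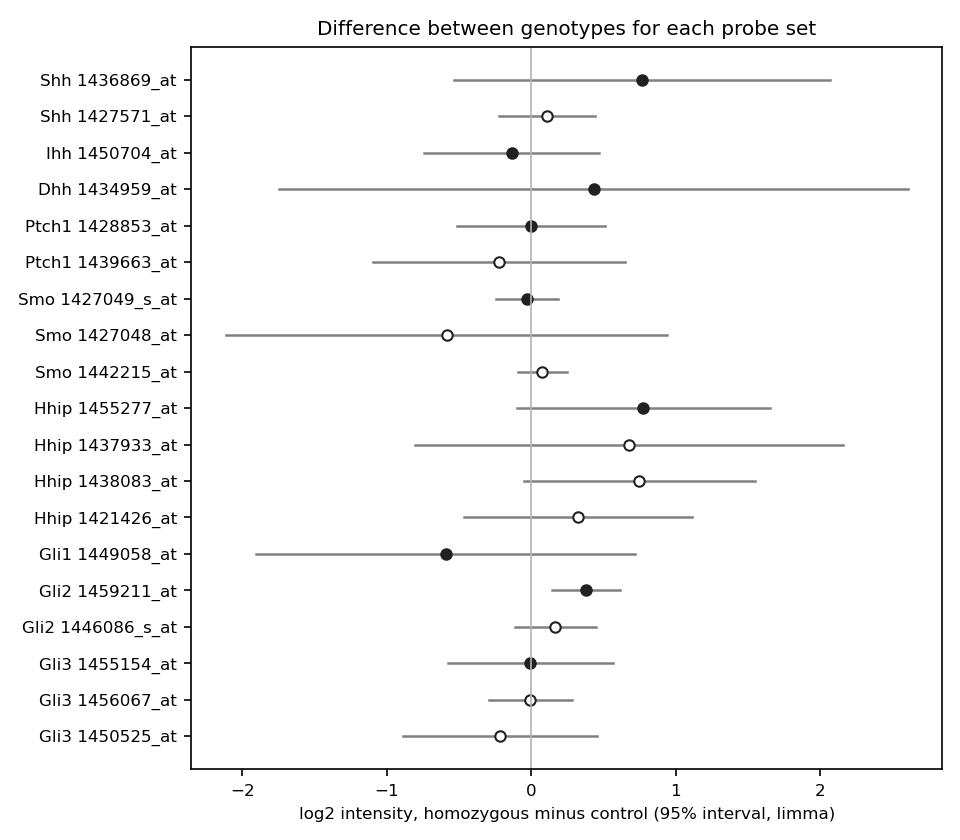
Log2 difference, homozygous minus control, of the 19 member probe sets above the floor in at least 1 pool, with 95% intervals from limma. Filled points are the brightest probe set of each gene and open points the others. The interval of Gli2 1459211_at, 0.14 to 0.61, is the only one without 0, and it is not adjusted for the number of probe sets tested.

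The rest of the pathway was read through 66 further genes in 5 lists, of which 63 were measured. None of the 63 passed, against 0.319% of the 18193 genes, and 33 had a higher and 29 a lower mean in homozygous pools, with a median log2 difference of 0.022. The unadjusted limma p was under 0.05 for 15 of the 63, and for 5550 of all 45037 probe sets, dim ones included. The 63 were read by the brightest probe set of each gene, so these counts are not on the same basis. Every homozygous pool lay above every control pool for 3 of them and below for 3, where 2.61% and 2.1% of all genes lay so. The 3 higher were Cdon, Iqce and Tgfb2, and the 3 lower were Lrp2, Evc2 and Aldh1a2.

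Of the co-receptors, Cdon, a membrane protein that binds the ligands beside Patched, read 2817, 2792, 3343, 2844 and 3851 in homozygous pools, against 1826, 2228, 1981, 2228 and 2614 in control pools. Its log2 difference was 0.52 ± 0.12 (SE; limma adjusted p = 0.12). The co-receptors Boc and Gas1 differed by 0.35 ± 0.16 and 0.14 ± 0.08 without passing. Lrp2, the large endocytic receptor megalin that can bind Shh and is abundant in the proximal tubule, read 319.8, 423, 317, 545 and 209 in homozygous pools, against 1019, 763, 1656, 1299 and 1170.2 in control pools. Its difference of -1.73 ± 0.28 had an adjusted p of 0.0575 over all probe sets and 0.039 with 1 probe set per gene (limma). The mean log2 of 9 proximal tubule markers, Lrp2 among them, was 7.57 to 8.27 in homozygous and 8.97 to 9.47 in control pools. All 9 had a lower homozygous mean. For 8 of them each homozygous pool lay below each control pool, beside 2.1% of all genes. The threshold was passed by 2, Hnf4a and Cubn, beside 0.319% of all genes.

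Among 20 measured genes of signal transduction and GLI control, 11 were higher and 9 lower in homozygous pools. Iqce, which anchors the EVC complex of the cilium, had a log2 difference of 0.44 ± 0.092 (limma adjusted p = 0.0951), while its partner Evc2 had one of -0.77 ± 0.18 (adjusted p = 0.122). Evc2 read 400.0, 447, 405, 521 and 484 in homozygous pools, against 1121, 549.6, 643, 814 and 823 in control pools. Its relative Evc differed by 0.086 ± 0.19. The other Iqce probe sets, both dimmer, differed by -0.008 and 0.74, and neither passed. Sufu, which holds GLI proteins inactive in the cytoplasm, differed by -0.17 ± 0.096, and Kif7, the kinesin of the cilium tip, by 0.29 ± 0.17, with neither past the threshold.

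In the list of ligand release and lipid addition, 3 of 7 genes had a higher and 4 a lower mean. The secreted release factor gene Scube3 had the smallest p of the list, with a log2 difference of -0.67 ± 0.28 (limma adjusted p = 0.382), followed by the palmitoyl transferase gene Hhat at -0.77 ± 0.35 (adjusted p = 0.425). Disp1, which exports the ligands, differed by -0.37 ± 0.36.

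The list of genes known as Hedgehog targets in other tissues also holds the members Ptch1, Gli1 and Hhip. Of its 22 measured genes 13 were lower and 8 higher, Foxl1 being at the floor in each pool. The median log2 difference, members included, was -0.073. Tgfb2, a growth factor gene, read 960, 769, 966, 762 and 979 in homozygous pools, against 439.8, 679, 469, 527 and 590.0 in control pools, and differed by 0.72 ± 0.14 (limma adjusted p = 0.0772). All 4 of its probe sets had a higher homozygous mean. Mycn differed by -0.47 ± 0.15 (adjusted p = 0.251). Cyclin D1 and D2 genes, Ccnd1 and Ccnd2, differed by -0.14 ± 0.29 and -0.14 ± 0.14.

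The ureter mesenchyme list shares the members Ptch1 and Gli1, and also Foxf1, with the targets. Of its 16 genes, members included, 10 had a higher and 6 a lower mean, with a median of 0.36. Aldh1a2, a retinoic acid-synthesizing enzyme also made in renal stroma, differed by -0.49 ± 0.11 (limma adjusted p = 0.106). Myocd, the cofactor that switches on smooth muscle genes, read 800.0, 169, 675, 551 and 977 in homozygous pools, against 125, 371, 122, 78.9 and 76.7 in control pools, a difference of 2.10 ± 0.58 (adjusted p = 0.17). Homozygous pool 2 was below control pool 2, so the groups overlapped. The mean log2 of 8 smooth muscle markers, Myocd among them, was 8.64 to 11.19 in homozygous and 7.63 to 9.88 in control pools. Bmp4 and Tbx18, signals and factors of the ureter mesenchyme, differed by 0.093 ± 0.40 and 0.53 ± 0.28.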

How the data were processed

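The authors deposited 1 linear intensity value for each array and probe set, scaled to a common trimmed mean of 500 (the highest and lowest 2% left out), as its values show. How probes were summarized is not given in the sources used here. Biotin-labelled cRNA was hybridized to Affymetrix arrays, per the labels' protocols and the design text. That text describes kidney mesenchyme of another stage, which the sample labels do not match, and the groups follow the labels. The titles of homozygous pools 1 to 4, but of no control pool, end in CHP. Nothing says that pools came from separate litters, so p-values cover only pool-to-pool spread, which may be technical.

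Intensities were floored at 16 and taken to log2. The 64 Affymetrix controls were left out, and of 45037 probe sets 34945 had 1 symbol in the platform annotation, 932 several and 9160 none. Genotypes were compared over all probe sets with limma 3.58.1 in R 4.3.3 (lmFit, eBayes with trend), two-sided, Benjamini-Hochberg adjusted, threshold 0.05, no block, tested on simulated data. Exact permutation tests used all 252 groupings. The probe set with the highest mean stood for a gene elsewhere. No 2 arrays held the same values. Further genes were named as the 2 of smallest p in each list that are not members, or all past the threshold, and patterns by the 3 highest r for members with a mean log2 of 8 or more. Foxf1 and the single marker genes were added after their values were seen. The members and lists were chosen with earlier results of these data known. Alternatives concerned the floor, dim probe sets, quantile normalization, 1 probe set per gene, the variance model, array weights, the replicate number, a Y-linked covariate and left-out pools. Gene positions are those of GRCm38.p6, and promoter sequences are RefSeq's. The number of arrays limits the precision.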

Additional observations from a re-analysis of the deposited data

Results flagged for a closer look

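In 7 of 59 groups of 5 pools, over the member probe sets and the further genes named by rule or after their values were seen, 1 pool stood far from the other 4, with a gap to its neighbour of over 0.71 of the group's range. A rate of about 1 in 20 such groups holds for normally distributed values. It does not hold for groups with values set to the floor, or for genes picked after their values were seen. The count of 7 was therefore not compared with it. Among members, the Gli1 level of control pool 1 was low, at 7.03 (log2), in the array with the higher actin ratio of the control group. The remaining flags among members were in probe sets that lay at or near the floor of 4.00 elsewhere in their group: Shh 1427571_at read 4.75 for homozygous pool 3 and 4.2 for control pool 1, Smo 1442215_at was 4.39 in homozygous pool 5, and Gli3 1450525_at was 5.09 in homozygous pool 4. Of the further genes, Aldh1a2 was high in control pool 1, at 12.79, and Foxf1 was high in control pool 2, at 11.03.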

How the results depend on the processing

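Under 21 alternatives, 0 of 19 member probe sets passed in any, and the lowest adjusted p was 0.0614 (Gli2 1459211_at with array weights; 0.0614 to 0.774 over its alternatives, with differences of 0.21 to 0.43). Of 382 recomputed differences 338 kept their sign and 44 did not, in 12 probe sets with a difference of at most 0.59 in size. Some of the 44 rounded to 0, so their sign has no meaning. These were Shh 1427571_at with a floor of 64 and every change counted for Smo 1442215_at, both at the floor in most pools. The difference of Gli1, -0.59, was 0.30 with the Y-linked level as a covariate. The number of probe sets past the threshold, 104, was 265 with log2(intensity + 16), 280 with dim probe sets left out, 176 with 1 probe set per gene, 734 with array weights and 63 with the Y-linked covariate. With the replicate number as a block it was 1. Same-numbered pools had deviations that correlated at -0.12 to -0.68, and 0 of 5 homozygous pools correlated best with their own number, so the numbers were not taken as pairs. Leaving out single pools gave 19 to 335. Of the 63 further genes 0 passed, but 1 did with log2(intensity + 16), 2 with dim probe sets left out, 1 with quantile normalization, 1 with 1 probe set per gene, 4 with array weights and 0 to 2 without single pools. Lrp2 was among them each time, with Tgfb2, Iqce and Aldh1a2 as the others. The cause was not tested. Probe sets near the floor carry mostly background.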
